A study of Homo sapiens with 6 samples.

Results

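The 10 genes described here, CDH1, CDH2, EPCAM, VIM, FN1, SNAI1, SNAI2, ZEB1, ZEB2 and TWIST1, are the classical marker genes and transcription factors of the epithelial-mesenchymal transition. They were taken by name and matched to array probes through the RefSeq accession printed for each probe. The matching used no measured value, but earlier results of these data were known when the genes were chosen. All 10 had at least 1 probe, among 22439 gene symbols on the array. Together they held 15 probes and 24 spots per array, and 4 of them had more than 1 probe.

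AGS is an established human gastric adenocarcinoma cell line. RNA was taken 48 h after transfection with a nontargeting siRNA (si-control, 3 samples) or with si-C1GALT1-3, an siRNA against C1GALT1 (3 samples). C1GALT1 encodes the enzyme that adds galactose to the first sugar of mucin-type O-glycans. Each sample was hybridized to 1 one-colour Agilent array. All 6 samples were the same line in the same medium, the knockdown was transient, and a single siRNA represented it on the arrays. The labels do not say whether the replicates came from separate cultures, so that p-values measure the spread between these samples, which may be technical.

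In the epithelial-mesenchymal transition, cells held together by E-cadherin give up their junctions and take on the matrix, intermediate filaments and motility of mesenchymal cells. SNAIL, ZEB and TWIST proteins are transcription factors that bind E-box sequences. Among other targets they repress CDH1, the gene of E-cadherin. In tumors of epithelia such as the stomach the process is often partial, and epithelial and mesenchymal genes can be expressed in the same cell.

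On each array 60901 gene spots were measured, of which 66.2 to 72.7% were well above background by the scanner software. The si-control array lay in column 1 of its slide and the si-C1GALT1-3 array in column 2 for all 3 replicate numbers, so that treatment and slide column cannot be told apart. On si-control replicate 2 a rectangle with 15.9% of the gene spots was dim, with a median of -2.23 on the log2 scale relative to the other arrays against -0.10 elsewhere, and its spots were set to missing. The values below are normalized log2 signals, that is, the log2 of the processed fluorescence after quantile normalization of the 6 arrays. They were compared with limma and adjusted by the Benjamini-Hochberg method over all 58195 probes tested. A gene was said to rise or fall where the unadjusted p was under 0.01 and the change at least 2-fold, which 1538 probes or 2.64% passed. Of these 961 were higher and 577 lower. At an adjusted p under 0.05 only 49 probes remained.

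The targeted gene, C1GALT1, was at 12.22, 13.03 and 12.62 in si-control replicates 1, 2 and 3 and at 11.76, 11.98 and 11.13 in si-C1GALT1-3 replicates 1, 2 and 3. All 3 knockdown samples lay below all 3 controls. The mean difference was -1.0 on the log2 scale (SE 0.31, n = 3 per group, limma adjusted p = 0.265), and it missed the rule on its p. Within slides 1, 2 and 3 the difference was -0.47, -1.05 and -1.49.

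None of the 10 genes rose or fell by this rule in the limma comparison, where 3.41% of 22437 genes did, 2.08% higher and 1.33% lower. VIM, lower in the knockdown, was the 1 gene of the 10 with an unadjusted p under 0.05, against 16.6% of all genes. The groups did not overlap for CDH1, higher, and VIM, lower, so 2 of 10, against 25.3% of all genes. Adjusted p-values of the 10 genes lay between 0.269 and 0.998, and 0 of them were under 0.05, against 0.138% of all genes. The median log2 fold change of the 10 was -0.06, beside 0.019 for all genes. In 8 of the 10 the fitted change was less than 2-fold in either direction.

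**Figure D1:**
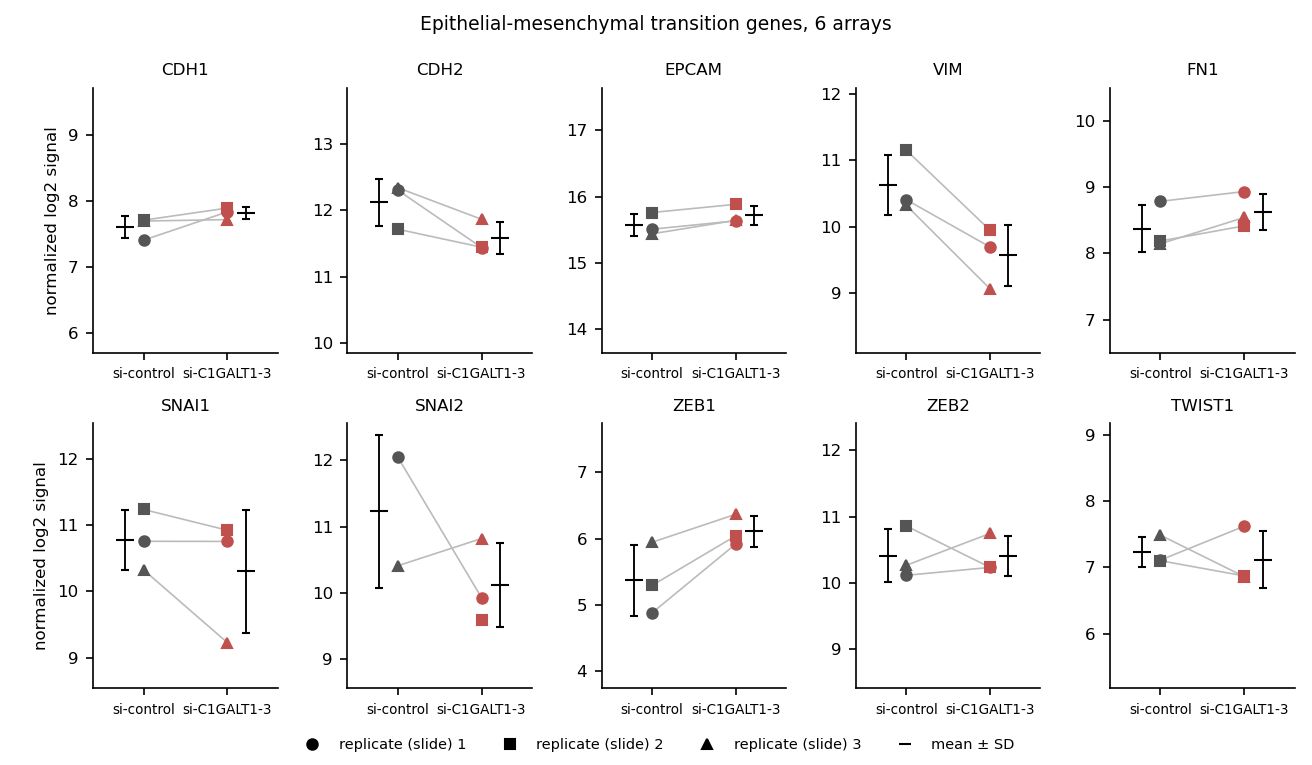
Normalized log2 signal (vertical axis, the same span of 4 log2 units in every panel) of the 10 epithelial-mesenchymal transition genes in si-control (grey) and si-C1GALT1-3 (red) samples, with lines joining samples of 1 slide and black bars for the mean ± SD. VIM lay lower in all 3 knockdown samples, whereas most other genes overlapped between the groups and SNAI2 has no value for si-control replicate 2.

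CDH1 encodes E-cadherin, the adhesion protein of epithelial adherens junctions. Its probe is spotted 10 times per array, and its mean was 7.41, 7.71 and 7.69 in si-control replicates 1, 2 and 3 and 7.83, 7.89 and 7.72 in si-C1GALT1-3 replicates 1, 2 and 3. The lowest knockdown sample lay just above the highest control, so that the groups were separate by less than the spread within either of them. It differed by a log2 fold change of 0.21 (SE 0.15, limma adjusted p = 0.593), with a 95% interval from -0.15 to 0.57, which leaves out a change of 2-fold in either direction.

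The repeated spots of CDH1 gave a direct view of the technical error within an array, and not of that between arrays. Between 6 and 10 spots per array were used, and the SD between them within an array was 0.10 to 0.32. This is the spread of single spots. The mean of an array is less variable than 1 spot, so this SD is not the error of the difference of 0.21 between the groups. On si-control replicate 2, 4 of the 10 spots lay in the dim rectangle. There their unnormalized log2 signals were 3.11 to 4.77, and the spots of the same probe outside it were at 7.21 to 8.08. With those 4 spots kept, the mean of that array was 6.42 and the log2 fold change of CDH1 became 0.61, nearly 3 times the value without them and still not past the threshold. The size of the CDH1 difference thus depended on this region of 1 array, and its call did not.

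EPCAM, an epithelial cell adhesion molecule and a general marker of epithelial and carcinoma cells, was at 15.51, 15.76 and 15.44 in si-control replicates 1, 2 and 3. It was at 15.63, 15.88 and 15.64 in si-C1GALT1-3 replicates 1, 2 and 3. Every knockdown sample exceeded the control on its own slide, by 0.13, 0.12 and 0.20, but the groups overlapped. The log2 fold change of EPCAM was 0.15 (SE 0.16, limma adjusted p = 0.725, 95% interval -0.23 to 0.54).

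CDH2 encodes N-cadherin, the cadherin of neural and mesenchymal cells that replaces E-cadherin in a full transition. The brighter of its 2 probes, A_23_P38732, was at 12.31, 11.72 and 12.34 in si-control replicates 1, 2 and 3 and at 11.44, 11.45 and 11.87 in si-C1GALT1-3 replicates 1, 2 and 3. Si-control replicate 2 lay within the range of the knockdown samples, and the other controls lay above that range. For this probe the log2 fold change was -0.54 (SE 0.24, limma adjusted p = 0.395), with an interval from -1.12 to 0.05.

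The other CDH2 probe, A_33_P3214159, did not show this difference. It was at 9.62, 9.09 and 9.22 in the controls and at 9.44, 9.35 and 9.52 in the knockdown samples, in the order of the replicates. Its log2 fold change was 0.13 (SE 0.18, limma adjusted p = 0.821), of the opposite sign, and 2 of its 3 within-slide differences were above 0. No direction is therefore given for CDH2.

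VIM encodes vimentin, the intermediate filament protein of mesenchymal cells. Its signal was 10.41, 11.16 and 10.32 in si-control replicates 1, 2 and 3 and 9.69, 9.95 and 9.06 in si-C1GALT1-3 replicates 1, 2 and 3. All knockdown samples lay below all controls, and the difference within slides 1, 2 and 3 was -0.71, -1.21 and -1.26. The mean was 10.63 ± 0.46 in controls and 9.57 ± 0.46 in the knockdown (SD, n = 3 each).

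The log2 fold change of VIM was -1.06 (SE 0.33), a signal 2.09-fold lower, with a 95% interval from -1.88 to -0.24. It did not pass the threshold of p in limma (adjusted p = 0.269). The same difference passed with the slide as a block and with dim probes left out of the fit. The call for VIM thus rested on how the spread was estimated, whereas its direction was the same in all 16 alternative fits.

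FN1 encodes fibronectin, a matrix glycoprotein that mesenchymal cells secrete. It was at 8.78, 8.19 and 8.14 in si-control replicates 1, 2 and 3 and at 8.93, 8.41 and 8.54 in si-C1GALT1-3 replicates 1, 2 and 3. Each knockdown sample was above the control of its slide, by 0.15, 0.23 and 0.40, and si-control replicate 1 was above 2 of the knockdown samples. The log2 fold change of FN1 was 0.26 (SE 0.24, limma adjusted p = 0.698, interval -0.35 to 0.86). FN1 and VIM, both usually counted as mesenchymal markers, thus had fitted differences of opposite sign.

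**Figure D2:**
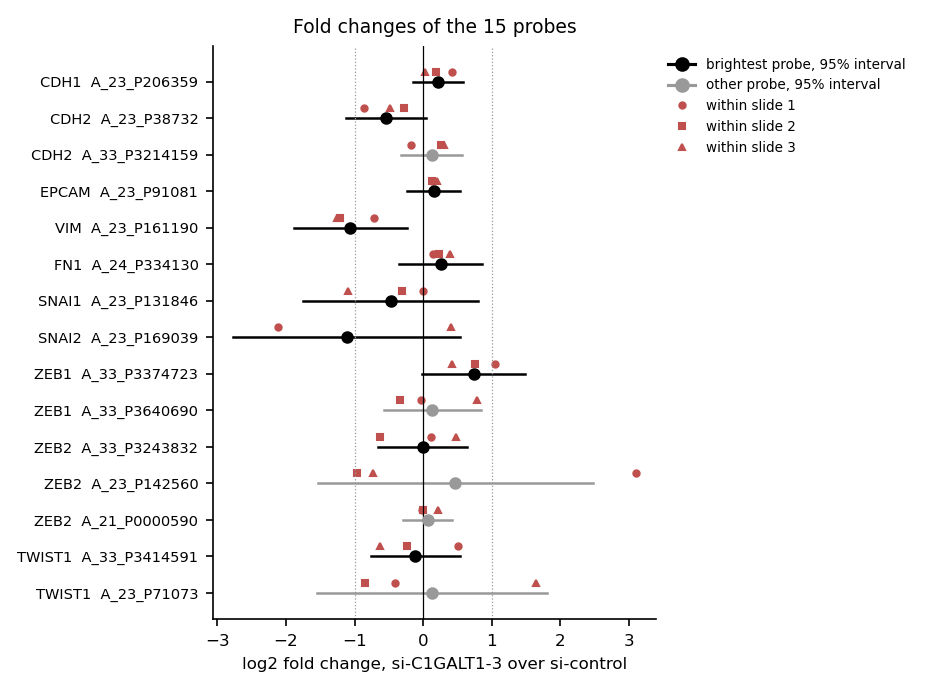
Log2 fold change of si-C1GALT1-3 over si-control (horizontal axis) for all 15 probes of the 10 genes, with the 95% interval from limma (black, brightest probe of a gene; grey, its other probes) and the difference within each slide (red symbols); dotted lines mark a 2-fold change. The interval of VIM, -1.88 to -0.24, was the one that did not reach 0, and the probes of CDH2, of ZEB2 and of TWIST1 had fitted values on both sides of 0.

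Among the transcription factors, SNAI1 encodes SNAIL, a zinc finger repressor of E-cadherin. Its signal was 10.76, 11.24 and 10.33 in si-control replicates 1, 2 and 3 and 10.75, 10.92 and 9.23 in si-C1GALT1-3 replicates 1, 2 and 3. Si-C1GALT1-3 replicate 3 stood below the 5 other samples, and the rest overlapped. SNAI1 had a log2 fold change of -0.47 (SE 0.51, limma adjusted p = 0.744, interval -1.75 to 0.80), and without si-C1GALT1-3 replicate 3 it was 0.066.

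SNAI2 encodes SLUG, the relative of SNAIL. Its only spot lay in the dim rectangle of si-control replicate 2 and has no value on that array. It was at 12.05 and 10.41 in si-control replicates 1 and 3, and at 9.93, 9.59 and 10.82 in si-C1GALT1-3 replicates 1, 2 and 3. Si-control replicate 1 was by far the highest sample, and si-control replicate 3 lay within the range of the knockdown. The log2 fold change of SNAI2, -1.12 (SE 0.63, limma adjusted p = 0.518, interval -2.77 to 0.54), was the largest fall fitted among the 10 genes and also the least precise of their brightest probes. Without si-control replicate 1 it was -0.30, without si-control replicate 3 it was -1.94, and the within-slide differences were -2.12 and 0.41. With the rectangle kept, si-control replicate 2 was at 10.29 and the log2 fold change at -0.84.

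ZEB1 encodes a zinc finger and homeodomain repressor. Its brighter probe, A_33_P3374723, was at 4.88, 5.29 and 5.94 in si-control replicates 1, 2 and 3 and at 5.92, 6.04 and 6.37 in si-C1GALT1-3 replicates 1, 2 and 3. These signals are near the limit of detection, since the probe was well above background on 1 of 3 control arrays and on 3 of 3 knockdown arrays. Si-control replicate 3 lay just above the lowest knockdown sample, and the other controls lay below all of them.

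The difference of ZEB1 was 1.04, 0.75 and 0.42 within slides 1, 2 and 3. Over the 3 samples per group its log2 fold change was 0.74 (SE 0.30, limma adjusted p = 0.372, interval -0.02 to 1.49), the largest rise fitted among the 10 genes. Without si-control replicate 3 it was 1.02, which passed the threshold, and with the dim rectangle kept it was 0.53. The other ZEB1 probe, A_33_P3640690, was well above background on none of the arrays.

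ZEB1 has several start sites, and RefSeq promoter windows of 300 bases were at hand for 7 of them (GRCh38.p14, plus strand of chromosome 10). They were searched on both strands for the E-box CACCTG, read as CAGGTG on the other strand, which SNAIL and ZEB proteins are known to bind. It was held by 20.6% of all 35116 windows given by RefSeq. Windows were found for 5 of the 10 genes, CDH2, VIM, FN1, ZEB1 and ZEB2. There were 7 for ZEB1 and 1 or 2 for each of the others. Among these genes the E-box was found in ZEB1 alone. Its windows starting at 31318167 and 31318966 held 1 and 3 copies, and its other windows held none. The share of 20.6% is per window, so a gene with 7 windows had more places to hold the E-box. The 4 stretches below are shown because ZEB1 is a reader of the E-box and, of these 5 genes, the gene that held it. Capitals mark the E-box, and the lines run from 5′ to 3′.
ZEB1, chr10:31318348-31318377: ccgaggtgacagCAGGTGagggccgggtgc
ZEB1, chr10:31318966-31318991: ccccaccaCACCTGaggaaaactttt
ZEB1, chr10:31319119-31319148: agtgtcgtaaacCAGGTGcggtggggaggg
ZEB1, chr10:31319237-31319265: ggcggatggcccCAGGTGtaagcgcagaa
The letters show that the E-box occurs there, and binding was not measured.

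ZEB2 encodes the relative of ZEB1. Its brightest probe, A_33_P3243832, was at 10.11, 10.86 and 10.27 in si-control replicates 1, 2 and 3 and at 10.23, 10.23 and 10.75 in si-C1GALT1-3 replicates 1, 2 and 3. The groups overlapped throughout. A log2 fold change of -0.0086 was fitted (SE 0.26, limma adjusted p = 0.998, interval -0.66 to 0.64), and its sign turned in 8 of 17 alternative fits. Of the other ZEB2 probes, A_23_P142560 was well above background on 1 array of each group and A_21_P0000590 on none.

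TWIST1 encodes a basic helix-loop-helix factor. Its brighter probe, A_33_P3414591, was at 7.11, 7.10 and 7.49 in si-control replicates 1, 2 and 3 and at 7.62, 6.87 and 6.86 in si-C1GALT1-3 replicates 1, 2 and 3. The knockdown samples held both the highest and the lowest values. TWIST1 had a log2 fold change of -0.11 (SE 0.26, limma adjusted p = 0.908, interval -0.76 to 0.53). Its other probe, A_23_P71073, varied from 3.30 to 5.69 between controls and gave 0.13 (SE 0.68, limma adjusted p = 0.971).

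Of the 5 transcription factors, all but ZEB1 were well above background on every array where their brightest probe was measured. On that probe AGS cells thus gave measurable signal for SNAI1, SNAI2, ZEB2 and TWIST1 in both groups, next to that of CDH1 and EPCAM. For ZEB2 and TWIST1 this did not hold on the other probes. Those of ZEB2 were well above background on 1 of 3 arrays per group and on none. That of TWIST1 was so on 2 of 3 control arrays and 1 of 3 knockdown arrays. The arrays were also checked for markers of other cells. All 6 gastric epithelial markers, EPCAM, KRT8, KRT18, KRT19, KRT7 and CDH1, were well above background on every control array, and the log2 of their summed signal was 19.06 to 19.50 in controls and 18.74 to 19.36 in the knockdown. Of 4 leukocyte markers with a probe 3 were so, led by PTPRC at 13.63 to 14.34 in controls, and ITGAM was well above background on no control array. The summed leukocyte signal was 13.65 to 14.37 in controls and 13.60 to 13.77 in the knockdown. Of 4 endothelial markers 2 were well above background on every control array where they were measured, and PECAM1 and KDR were not. Their summed signal, over the 3 with a value on all arrays, was 7.52 to 8.52 in controls and 7.44 to 7.80 in the knockdown. VWF, which the sum leaves out because of the mask, was lower in all 3 knockdown samples than in both controls, with a log2 fold change of -1.03 (SE 0.29, limma adjusted p = 0.257). None of these markers passed the threshold, and the part of other cells in the results was not tested.

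The partners, targets and inducers of the 10 genes were read from 7 lists of 125 genes, of which 123 were tested. Of these 6 rose and 1 fell, 5.69% beside 3.41% of all genes. The lists were drawn up with earlier results of these data known, so the shares given here only describe them. In the limma comparison 22 of the 123 had an unadjusted p under 0.05, beside 16.6% of all genes, and 0 an adjusted p under 0.05, beside 0.138%, the smallest being 0.0731. With dim probes left out 5 list genes, ACTA2, CTNNA1, EHF, ID2 and S100A4, were under 0.05, and with another background correction (normexp) 4 of these, all but ID2. Among the 123 genes the groups did not overlap for 24 that were higher and 11 that were lower, beside 25.3% of all genes in either direction. Both figures include genes with 2 control values because of the mask, such as ELF3, where groups separate more easily. Genes well above background on none of the arrays were not left out. The median log2 fold change over the lists was 0.046.

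Cadherin partners and desmosome proteins, 14 genes, link cadherins to the cytoskeleton and form spot junctions. None rose and 1 fell, and the list had a median of 0.19. The gene that fell was CTNNA1, which encodes alpha-catenin, the protein that couples the cadherin-catenin complex to actin. Its probe A_33_P3403418 was at 13.58, 14.08 and 14.24 in si-control replicates 1, 2 and 3 and at 12.38, 12.76 and 12.45 in si-C1GALT1-3 replicates 1, 2 and 3. This is a log2 fold change of -1.44 (SE 0.22, limma adjusted p = 0.103).

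The second CTNNA1 probe, A_23_P58647, showed a larger fall. It was at 12.97, 13.25 and 13.23 in the controls and at 11.22, 11.40 and 10.85 in the knockdown samples, in the order of the replicates. Its log2 fold change was -1.99 (SE 0.19, limma adjusted p = 0.060), a 3.98-fold lower signal. On both probes every control lay above every knockdown sample, and CTNNA1 passed in all 16 alternative fits. The largest fitted rise of this list was that of DSC2, a desmosomal cadherin, at 1.01 (SE 0.50, limma adjusted p = 0.443), which did not pass. DSC2 was higher by 1.15, 1.00 and 0.88 within slides 1, 2 and 3, and with the slide as a block it passed.

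Of 20 genes of tight junctions and apical polarity none passed, with a median log2 fold change of 0.0034. The largest fitted rise was CGN, encoding cingulin, from 10.51 ± 0.70 to 11.36 ± 0.20 (SD, n = 3 each), a log2 fold change of 0.84 (SE 0.37, limma adjusted p = 0.396). The largest fitted fall was PALS1, a scaffold of the Crumbs polarity complex, from 9.04 ± 0.09 to 8.27 ± 0.09. Its log2 fold change of -0.76 (SE 0.13, limma adjusted p = 0.118) exceeded the spread between replicates, but it was under 2-fold.

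Among 12 tested genes of epithelial transcription and splicing factors, which maintain the epithelial state, 2 rose and none fell, with a list median of 0.09. Both that rose, EHF and ELF3, belong to the epithelium-specific branch of the ETS family. EHF was at 9.24, 9.08 and 8.71 in si-control replicates 1, 2 and 3 and at 10.73, 10.67 and 10.54 in si-C1GALT1-3 replicates 1, 2 and 3. The knockdown samples lay close together and well above every control. EHF had a log2 fold change of 1.63 (SE 0.18, limma adjusted p = 0.0731), a 3.10-fold higher signal, and it passed in all 16 alternative fits.

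ELF3 was at 13.91 and 14.27 in si-control replicates 1 and 3, with si-control replicate 2 masked by the dim rectangle. It was at 15.08, 15.19 and 15.13 in the knockdown samples, all above both controls. On the log2 scale ELF3 was 1.04 higher (SE 0.18, limma adjusted p = 0.141), just past 2-fold, and it failed the rule in 8 of 16 alternative fits. With the slide as a block it was 1.01 and its p was over 0.01, with 75th percentile normalization 0.89 and without si-control replicate 1 0.86. FOXA1, a pioneer factor of foregut epithelium, had the largest fitted fall of this list, from 11.49 ± 0.23 to 10.55 ± 0.17 (SD, n = 3 each). Its log2 fold change of -0.93 (SE 0.18, limma adjusted p = 0.140) was under 2-fold.

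Of 15 further transcription factors linked to the transition none passed, with a median of 0.06. The largest fitted fall was SNAI3 at -0.54 (SE 0.23, limma adjusted p = 0.404), the relative of SNAI1 and SNAI2, with 2 control values because of the mask. Of 15 tested genes for corepressors of SNAIL and ZEB and for SNAIL turnover none passed either, with a median of -0.09. They ranged from AJUBA, a LIM protein that binds SNAIL, at -0.60 (SE 0.16, limma adjusted p = 0.218), to SIN3A, a scaffold of histone deacetylase complexes, at 0.40 (SE 0.17, limma adjusted p = 0.377).

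TGF-beta signalling is the classical inducer of the transition, and 1 of its 24 genes rose and none fell, with a median of 0.08. The gene that rose was ID2, an inhibitor of basic helix-loop-helix factors. Its brighter probe, A_23_P143143, was at 11.53, 12.37 and 11.95 in si-control replicates 1, 2 and 3 and at 13.40, 13.15 and 13.64 in si-C1GALT1-3 replicates 1, 2 and 3. The groups did not overlap, and the log2 fold change was 1.45 (SE 0.26, limma adjusted p = 0.128), past the threshold in all 16 alternative fits.

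The other ID2 probe, A_32_P69368, had a log2 fold change of 1.14 (SE 0.33, limma adjusted p = 0.240), in the same direction but not past the threshold. The largest fitted fall in this list was SMAD4, the common mediator SMAD, at -0.64 (SE 0.27, limma adjusted p = 0.374). It went from 8.57 ± 0.42 in the controls to 7.93 ± 0.28 in the knockdown (SD, n = 3 each), and the groups overlapped.

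Of 23 genes of mesenchymal matrix and cytoskeleton 3 rose and none fell, with a median of -0.02, while 5 were well above background on none of the arrays. Of 5 fibroblast markers 3 were well above background on every control array where they were measured, and DCN and LUM on none. The log2 of the summed signal of COL3A1 and DCN, the 2 markers with a value on all arrays, was 8.41 to 9.88 in controls and 9.76 to 10.55 in the knockdown. COL3A1, the brighter, had a log2 fold change of 1.17 (SE 0.46, limma adjusted p = 0.350), and its groups overlapped. DCN had one of -0.70 (SE 0.46, limma adjusted p = 0.570). Of the markers masked on si-control replicate 2, PDGFRB had a log2 fold change of -0.81 (SE 0.19, limma adjusted p = 0.207), with both controls above all knockdown samples, and COL1A1 one of -0.05 (SE 0.24). The part of these markers in the changes of the list was not tested. ACTA2, smooth muscle actin of contractile cells and myofibroblasts, was at 9.32, 9.96 and 9.85 in si-control replicates 1, 2 and 3. It was at 11.29, 11.43 and 11.36 in si-C1GALT1-3 replicates 1, 2 and 3. The knockdown samples differed by little among themselves and lay far above every control. ACTA2 had a log2 fold change of 1.64 (SE 0.20, limma adjusted p = 0.0823), a 3.13-fold higher signal.

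S100A4, a calcium-binding protein also known as fibroblast-specific protein, was at 12.79, 13.37 and 13.70 in the controls and at 14.87, 14.70 and 15.34 in the knockdown samples, in the order of the replicates. S100A4 had a log2 fold change of 1.68 (SE 0.30, limma adjusted p = 0.124), a 3.21-fold higher signal. Both ACTA2 and S100A4 had groups that did not overlap, and both passed in all 16 alternative fits.

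CDH11, a mesenchymal cadherin, was at 8.55, 7.81 and 7.71 in si-control replicates 1, 2 and 3 and at 9.35, 9.18 and 10.19 in si-C1GALT1-3 replicates 1, 2 and 3. The groups did not overlap, although si-control replicate 1 came near the lowest knockdown samples. CDH11 had a log2 fold change of 1.55 (SE 0.36, limma adjusted p = 0.178), and it failed the rule in 7 of 16 alternative fits. With the slide as a block its p was over 0.01, with the dim rectangle kept the log2 fold change was 1.38, and an equal-variance test of single probes did not call it either. It was 1.45 without si-control replicate 2 and 1.40 without si-control replicate 3. Leaving out knockdown replicate 1 gave 1.67, and leaving out knockdown replicate 3 gave 1.24. LOXL2, a lysyl oxidase of the matrix, had the largest fitted fall of this list. It was well above background on 2 of 3 control arrays and on none of the knockdown arrays. LOXL2 had a log2 fold change of -0.92 (SE 0.29, limma adjusted p = 0.271, interval -1.63 to -0.20). Within slides 1, 2 and 3 it differed by -1.12, -1.49 and -0.14. Set against the limit of detection, the control mean was 1.35-fold higher, a value that takes no account of the spread between arrays.

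VIM, ACTA2, S100A4 and CDH11 are all counted as mesenchymal genes, and their values moved in different directions: VIM had a log2 fold change of -1.06 without passing the threshold, while the other genes rose by 1.64, 1.68 and 1.55 on that scale. These 3 are named because they were the genes of the mesenchymal list past the threshold. Of its 23 tested genes 11 had a fitted change above 0 and 12 below. Of the junction genes, CTNNA1 fell, whereas CDH1, 1 of the cadherins it serves, had a log2 fold change of 0.21 that did not pass. CDH2, another of them, was given no direction. The CDH1 probe, with a control mean of 7.60, was dimmer than the brighter CDH2 probe, with 12.12. The other CDH2 probe had a control mean of 9.31, so signals of different probes do not rank these genes by amount of RNA.

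**Figure D3:**
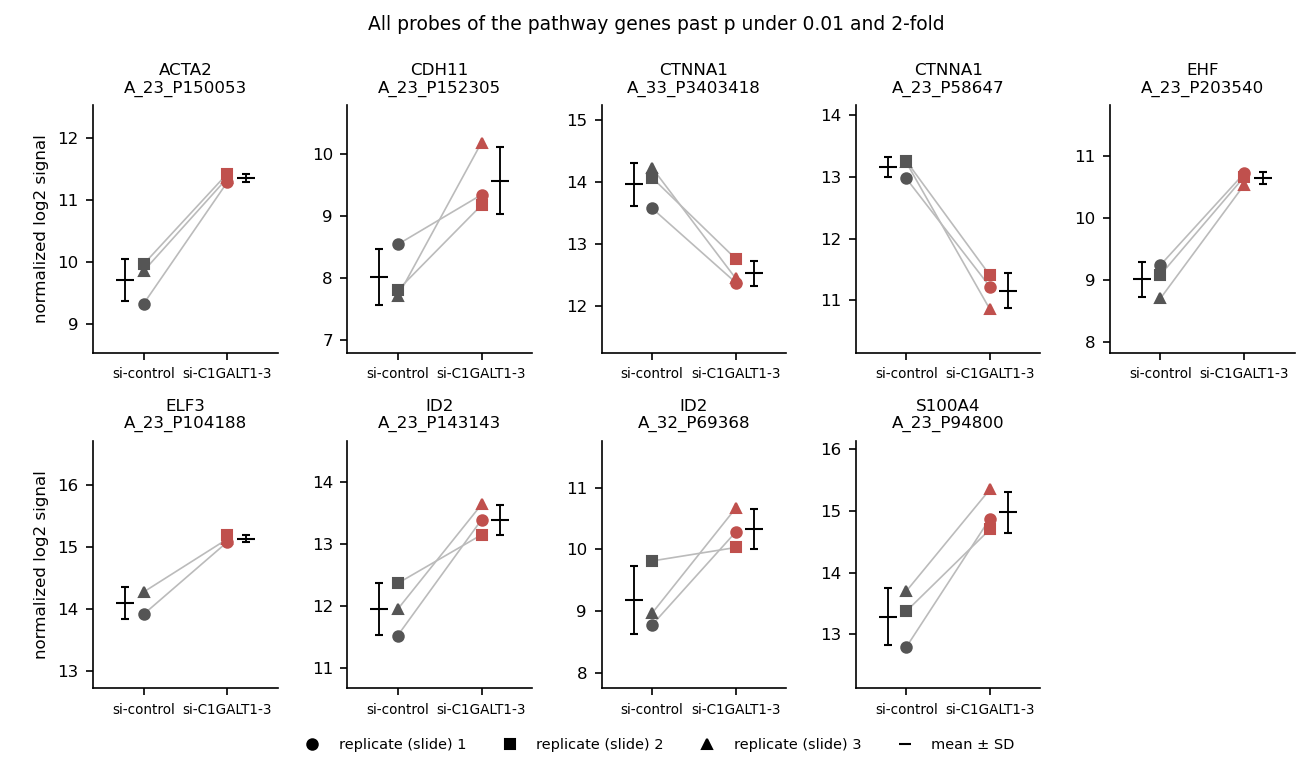
Normalized log2 signal (vertical axis, the same span of 4 log2 units in every panel) in si-control (grey) and si-C1GALT1-3 (red) samples for all probes of the 7 list genes past p under 0.01 and 2-fold, with lines joining samples of 1 slide and black bars for the mean ± SD. Both CTNNA1 probes were lower in every knockdown sample and the other genes were higher, among them ID2 on both of its probes.

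RefSeq promoter windows were at hand for 6 of the 7 list genes that rose or fell, and 2 of them, ELF3 and S100A4, held the E-box, in capitals here. They are shown because both genes rose, 1 from the epithelial and 1 from the mesenchymal list.
ELF3, chr1:202010455-202010484, plus strand, GRCh38.p14: gaatatgcaaatCACCTGgggccaggagcc
S100A4, chr1:153545953-153545982, minus strand, GRCh38.p14: cccacgggtgccCACCTGggaacaggaggc
The E-box was in 20.6% of all windows, so its presence here only describes their letters.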

How the data were processed

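Gene expression was measured in 6 samples of AGS cells, 3 per group, grouped by the labels. The authors deposited the scanner output of Agilent Feature Extraction (version 10.5.1.1 in the submitters' processing notes), which holds the fluorescence intensity of each spot. The processed intensity had been corrected for background by that software and was not normalized between arrays. The series table, also deposited, holds background-subtracted intensity, within 4.8e-09 of the scanner column. The header of the scanner files names hg19, and the RefSeq table used for gene names and promoter windows is of GRCh38.p14, so no coordinates of probes are given. No depth exists for arrays, and their number limits the precision.

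Log2 values of the processed intensity were taken. Control spots, spots marked as outliers (100 to 424 per array) and the 9712 gene spots of the dim rectangle on si-control replicate 2 were left out. Arrays were quantile normalized, spots of a probe averaged, and groups compared with limma 3.58.1 (lmFit, eBayes) in R 4.3.3. A gene with several probes was read from its brightest one, and every probe of the 10 genes is reported. The members and lists were chosen with earlier results of these data known. Named are C1GALT1, the 10 genes and, of each list, the largest rise, the largest fall and every gene past p under 0.01 and 2-fold. The largest rise of the list of further transcription factors is not reported here. Outside this rule, marker genes are named as a check of the cells. OVOL2, EED and CD68, which are on the lists, had no probe matched by accession and were not analysed here. The 1.35-fold value of LOXL2 set the brighter mean against the lowest signal well above background on each array of the dimmer group, and it is not a minimum. The procedure was tested on simulated data.

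Replicate numbers mark a shared slide in the scanner files. Deviations from the group means correlated at 0.198, 0.215 and 0.329 between arrays of the same number and at -0.215 to 0.010 otherwise (48794 probes). The main fit, which gave the p-values above, had no term for this pairing. A fit with the slide as a block was an alternative. The others were keeping the rectangle or the outlier spots, 75th percentile or no normalization, normexp with an offset of 50 (on the median spot signal), leaving out dim probes, a trend and robust prior, Student's equal-variance test, the series table with a floor of 10, the median over probes, and leaving out each array.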

Additional observations from a re-analysis of the deposited data

How the results depend on the processing

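Over the 16 alternative fits the number of the 10 genes past p under 0.01 and 2-fold was 0 or 1. It was 1 with the replicate number as a block and 1 with dim probes left out, VIM in both, and 0 to 1 with each array left out, where the 1 was ZEB1 without si-control replicate 3. With dim probes left out C1GALT1, at -1.0 on the log2 scale, passed as well. The number of probes past the threshold was 1604 with the replicate block, 915 with normexp, 896 with Student's equal-variance test and 1134 to 1818 with each array left out, against 1538. At an adjusted p under 0.05 the 49 probes became 545 with dim probes left out, where fewer probes were tested, 429 with normexp, 74 with the series table, 31 with the 75th percentile, 2 with Student's equal-variance test and 0 in the other fits, and none of the 10 genes was among them. The cause of these differences was not tested. Of the probes past p under 0.01 and 2-fold, 62.5% were higher in the main fit. This share was 40.2% with the rectangle kept, 72.6% without normalization, and 52.1% without si-control replicate 1. With 75th percentile normalization the median of all probes moved to -0.11 on the log2 scale. List genes past the threshold numbered 5 to 8.

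The log2 fold change of ZEB2 turned to 0.0049 with the 75th percentile, 0.14 without normalization, 0.019 with normexp, 0.0063 with the series table and 0.065 over the median of its probes, and was -0.18 to 0.21 with each array left out. That of TWIST1 turned to 0.056 with normexp and 0.0071 over the median of its probes, and was -0.37 to 0.014 with each array left out. That of SNAI1 was -0.78 to 0.066 with each array left out. CDH1 (0.11 to 0.61), CDH2 (-0.74 to -0.21), EPCAM (0.024 to 0.25), FN1 (0.066 to 0.46), VIM (-1.25 to -0.80), SNAI2 (-1.94 to -0.30) and ZEB1 (0.28 to 1.02) kept their sign in every fit run. These ranges are of the brightest probe of a gene and of the median over its probes. The other CDH2 probe was at 0.13 in the main fit, so CDH2 is still given no direction. The replicate block ended the calls of ELF3 and CDH11, added those of VIM and DSC2, and changed no other call among the 10 genes and the lists. Probes near background, as for ZEB1, limit what can be read.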
